A study of Mus musculus with 36 samples.

Results

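Sendai virus (SeV) and 3',3'-cGAMP were compared directly, without the unstimulated control, in 4 of the 36 libraries of an ATAC-seq study of mouse dendritic cells: the 2 libraries of cells given SeV (S) against the 2 given cGAMP (cG), as their sample titles name them. ATAC-seq cuts open chromatin with a transposase and counts the sequenced ends over accessible regions, called peaks. The cells were dendritic cells (BMDC) differentiated in 15 ng/ml GM-CSF from the bone marrow of female C57BL/6 mice aged 6 to 8 weeks and stimulated for 6 h. GM-CSF cultures hold macrophage-like cells beside dendritic cells, and neither genotype nor age differed between the groups. The labels give no dose for either agent and do not say whether the 2 libraries of a group came from separate cultures or animals. The p-values below therefore measure only a spread between libraries of a group, pooled over all 36 libraries of the study. The same 2 agents were also given with PAM (PS and PcG, 2 libraries each) and with depleted zymosan (ZS and ZcG, 2 libraries each), which gives the SeV-cGAMP difference again in libraries that share none with S or cG. A control without ligand (Ctrl, 2 libraries) and both agents together (ScG, 2 libraries) are used only to place the levels.

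Sendai virus is a mouse parainfluenza virus with an RNA genome. Its RNA is sensed in the cytosol by RIG-I-like receptors, which signal through the adaptor MAVS. 3',3'-cGAMP is a bacterial cyclic dinucleotide that binds STING, an adaptor on the endoplasmic reticulum. Both routes activate the kinase TBK1 and the factor IRF3, which drive interferon beta. Interferon then induces antiviral genes through STAT factors and IRF9, and both routes also reach NF-kappaB, the factor that drives many inflammatory genes.

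The comparison covered 119464 peaks, and a peak was called where its adjusted p from edgeR's quasi-likelihood test was under 0.05. SeV and cGAMP differed at 1133 of them (0.948%): 870 were more accessible with SeV (0.728%) and 263 with cGAMP (0.22%). Of the peaks called, those higher with cGAMP were wider, stronger and differed less than those higher with SeV. Within 1 kb of a gene end lay 6.44% of the SeV-higher and 13.3% of the cGAMP-higher peaks, against 14.3% of all tested peaks. Among the genes of innate sensing, the peak on the 3' side of Ifnb1 and peaks of the NF-kappaB genes Nfkb1, Tnfaip3 and Traf1 were higher with SeV. The strongest gene-end peaks of the antiviral genes Rsad2, Ifit1 and Isg15 were not called.

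The promoters of 4 genes are printed from RefSeq (GRCm38.p6) to show the gene starts that the results return to: Ifnb1, whose start peak missed the threshold here but was called with PAM in both groups, Ifna5, the other interferon gene with a called peak, and the promoters with the lowest p in each direction, Hamp and Nab2. Each line gives bases 200 to 81 before the annotated start, 5' to 3' on the gene's strand. Capitals mark matches to 3 short motifs searched on both strands: GGGA and CC with 4 free bases between them for NF-kappaB, GAAA and GAAA with 2 free bases between them for an interferon response element, and TGANTCA for AP-1.
Ifnb1 (chr4:88522875-88522994, minus strand): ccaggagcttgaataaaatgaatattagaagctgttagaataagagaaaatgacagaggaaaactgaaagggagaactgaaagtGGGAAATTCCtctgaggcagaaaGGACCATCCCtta
Ifna5 (chr4:88835325-88835444, plus strand): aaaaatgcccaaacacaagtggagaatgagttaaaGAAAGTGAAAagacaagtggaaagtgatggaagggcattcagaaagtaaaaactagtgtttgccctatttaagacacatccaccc
Hamp (chr7:30944110-30944229, minus strand): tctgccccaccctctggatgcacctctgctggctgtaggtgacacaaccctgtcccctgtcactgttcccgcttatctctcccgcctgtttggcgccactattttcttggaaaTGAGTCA
Nab2 (chr10:127666784-127666903, minus strand): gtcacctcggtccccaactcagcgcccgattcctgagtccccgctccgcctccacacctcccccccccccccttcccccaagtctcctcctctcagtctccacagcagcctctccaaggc

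The Ifnb1 promoter held 2 matches to the NF-kappaB motif, at 116 to 107 and, on the other strand, 93 to 84 bases before the start. Ifna5, which encodes an interferon alpha, held a match to the interferon response element at 165 to 156 bases before its start. Only GAAA pairs with exactly 2 free bases were searched, so pairs at other spacings, as in the Ifnb1 line, stay in lower case. Hamp, which encodes the iron hormone hepcidin, held an AP-1 match at 87 to 81 bases, and Nab2, a partner of EGR factors, held none of the 3 motifs in the 250 bases before its start. Over all 21262 promoters in the table, windows of those 250 bases held the NF-kappaB motif in 19.6%, the interferon response element in 2.96% and the AP-1 motif in 6.13%. Of the 11999 promoters overlapping a tested peak, 23.3%, 2.82% and 4.28% did. Of the 10 promoters, from 8 genes, overlapping a peak higher with SeV, 4 held the NF-kappaB motif, 1 the response element and 5 the AP-1 motif. Of the 29 promoters overlapping a peak higher with cGAMP, the numbers were 3, 0 and 1. Some of these windows belong to the same gene or overlap, and a match is a description of letters, not of binding.

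The 4 libraries held 21303203 to 29512387 counts each, of which one peak over the mitochondrial genome took 45.0% to 48.7%, leaving 11718168 to 15132150 counts outside it. The mitochondrial share of PS and PcG was close to that (44.5% to 46.6%), while it was 51.0% to 58.1% in ZS, 62.8% to 63.1% in ZcG, 57.3% to 61.5% in ScG and 60.1% to 61.9% in Ctrl. Its part in comparisons with these last groups was not tested. On the log2 CPM scale (CPM, counts per 1000000 outside the mitochondrial peak, on library sizes scaled by TMM) Pearson's r across peaks was 0.949 between the S libraries and 0.940 between the cG libraries, against 0.931 to 0.936 between an S and a cG library. Dendritic cell markers had peaks in all 4 libraries (7 of 7 genes, summed level 470 to 492 CPM in S, 451 to 471 in cG and 403 to 404 in Ctrl). So did macrophage markers (5 of 5 genes, 220 to 224 CPM in S, 235 to 243 in cG and 231 to 246 in Ctrl). No peak of these 2 lists, or of the neutrophil, mast cell or basophil, B cell and T cell lists, was called, but 1 macrophage marker peak was called higher with cGAMP by DESeq2 and with only the 4 libraries fitted. The macrophage sums in S and cG did not overlap, and their part in the results was not tested. Ngp, Mcpt8, Cpa3 and Fcer1a had no tested peak, and the strongest Cd3e peak was at 0 to 0.615 CPM. In a mixed culture, fewer cells with an open site and a site less open in each cell cannot be told apart.

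**Figure D1:**
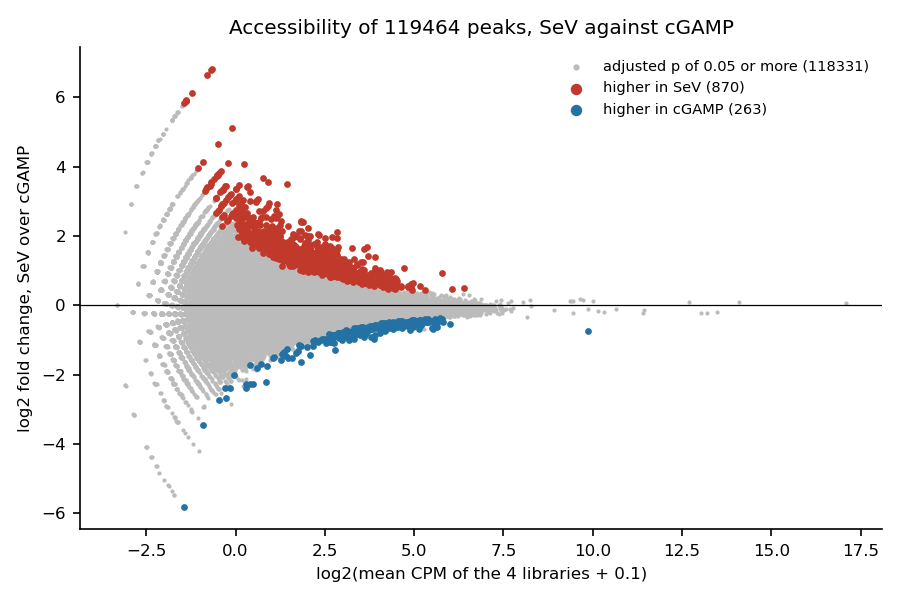
Log2 fold change of SeV over cGAMP (y axis) against log2 of the mean level of the 4 libraries in CPM plus 0.1 (x axis), 1 point for each of 119464 peaks. Red points are the 870 peaks higher with SeV, blue points the 263 higher with cGAMP, and grey points were not called; the red points extend further from 0 and to lower levels than the blue ones.

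The 870 peaks higher with SeV had a median log2 fold change of 1.44, and 661 of them were at 1 or more. The 263 peaks higher with cGAMP had a median of -0.65, and 45 were at -1 or less; both directions together gave 706 peaks past this size (0.591% of those tested). The median level was 3.64 CPM for the SeV-higher peaks and 13.9 CPM for the cGAMP-higher ones, against 2.06 CPM over all tested peaks. Median widths were 607, 885 and 451 bp. A low-level peak must differ more to be called, so the sizes in the 2 directions do not compare on their own. At all 1133 peaks both S libraries lay beyond both cG libraries; over all tested peaks 20.9% had S above cG without overlap and 20.5% had cG above S.

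Places were taken from RefSeq models of protein-coding genes, and other genes were not used. Of the SeV-higher peaks, 56 lay within 1 kb of either end of a gene, 431 (49.5%) inside a gene and 383 (44.0%) outside. Of the cGAMP-higher peaks, 35 (13.3%) lay near a gene end, 111 (42.2%) inside a gene and 117 (44.5%) outside. All tested peaks had 14.3% near a gene end, 46.9% inside and 38.8% outside.

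Leaving out any 1 of the 4 libraries lowered the count to between 362 and 434: 378 without S replicate 1, 381 without S replicate 2, 434 without cG replicate 1 and 362 without cG replicate 2. Of the 1133 peaks, 297 to 349 were still called in these smaller fits and none had the opposite sign. At all 1133 peaks both S libraries lay beyond both cG libraries, so leaving 1 out could hardly turn a sign. Fits with a lone library in 1 group assume that it varies like the other groups.

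Type I interferons are the secreted signal that both pathways share, and 14 of 18 listed genes had a tested peak within 5 kb. Of these 25 peaks, 2 were called higher with SeV (8%) and 0 with cGAMP, with a median log2 fold change of 0.37 and 18 above 0; over all tested peaks the median was -0.01. The peak on the 3' side of Ifnb1 (interferon beta; chr4:88519372-88521906, 119 bp from the gene) stood at 20.3 and 22.9 CPM with SeV, 8.03 and 8.45 CPM with cGAMP, and 3.28 and 1.83 CPM in Ctrl. The S libraries were above all others of these 3 groups and the cG libraries lay between them and the control. The log2 fold change was 1.39 ± 0.21 (SE), with an adjusted p of 1.1e-06. It stayed called with any 1 library left out.

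The peak over the Ifnb1 start, which holds the printed promoter (chr4:88522158-88523152), had 9.61 and 10.4 CPM with SeV, 5.17 and 5.66 with cGAMP, and 1.31 and 2.03 in Ctrl. Its groups did not overlap, and its log2 fold change of 0.88 ± 0.27 missed the threshold (adjusted p = 0.081). The Ifna5 peak (chr4:88835268-88836138, over the printed promoter) had 3.99 and 4.92 CPM with SeV against 1.91 and 0.86 with cGAMP and 1.75 and 0.386 in Ctrl. Its log2 fold change was 1.70 ± 0.43 (adjusted p = 0.021), and the call was lost without either S library or without cG replicate 2. Interferon alpha genes are near-identical copies, so reads may be split among them.

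Sensors and their adaptors were tested next. The gene for RIG-I itself (Ddx58) had 14.9 and 17.6 CPM with SeV and 15.7 and 19.2 with cGAMP at its strongest gene-end peak, groups that overlapped. Its log2 fold change was -0.10 ± 0.16, and that of MDA5 (Ifih1) -0.07 ± 0.10, both uncalled (adjusted p of 0.89 and 0.87). At Sting1 the levels were 3.99 and 4.18 CPM with SeV and 5.65 and 4.01 with cGAMP. At Cgas, an enzyme of STING signalling, they were 40.8 and 37.3 against 40.9 and 40.3. Neither was called, with log2 fold changes of -0.24 ± 0.30 and -0.06 ± 0.11. The signs at Ddx58, Ifih1, Sting1 and Cgas, and below at Isg15 and Il12b, turned under at least 1 other setting or left-out library.

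Of 194 peaks at 21 RIG-I-like receptor pathway genes, 1 was higher with SeV (0.515%) and 0 with cGAMP, with a median of 0.01. It lay 4598 bp from Tank, an adaptor of TBK1, and rested on 18 and 19 counts with SeV against 3 and 0 with cGAMP. The call was lost without S replicate 1, S replicate 2 or cG replicate 2. Of 187 peaks at 24 genes of STING signalling, 0 were higher with SeV and 1 with cGAMP (0.535%), with a median of -0.01. That peak (chr2:157086529-157094690) is within 5 kb of Samhd1, a nucleotide-degrading antiviral enzyme, and overlaps the neighbouring gene Tldc2. It had 28.3 and 30.1 CPM with SeV, 43.0 and 44.1 with cGAMP and 14.7 and 15.3 in Ctrl, and a log2 fold change of -0.58 ± 0.12 (adjusted p = 0.0012); it was not called without S replicate 1.

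Antiviral interferon-stimulated genes block viral replication, and 43 of them had 293 tested peaks. Of the 293, 1 was called higher with SeV and 1 with cGAMP (0.341% each), and the median was -0.03. Rsad2, which encodes viperin, had 183 and 179 CPM with SeV, 146 and 180 with cGAMP and 25.6 and 28.0 in Ctrl at its strongest gene-end peak. The S and cG libraries overlapped there, at a level well above both control libraries, and the log2 fold change was 0.15 ± 0.09 (adjusted p = 0.55). Ifit1, whose product binds viral RNA, had 50.6 and 51.0 CPM with SeV and 45.0 and 42.9 with cGAMP, against 3.82 and 5.79 in Ctrl. The groups did not overlap, and the log2 fold change was 0.21 ± 0.13 (adjusted p = 0.61). Isg15, a ubiquitin-like protein, had 121 and 128 CPM with SeV and 135 and 126 with cGAMP, overlapping groups with a log2 fold change of -0.07 ± 0.09.

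The Gbp5 peak called higher with SeV lay 1174 bp from the gene, which encodes a guanylate-binding protein. It had 19.3 and 15.6 CPM with SeV against 11.1 and 9.53 with cGAMP (0.76 ± 0.20, adjusted p = 0.046). The Ifit2 peak, inside the gene (chr19:34552816-34554194), was higher with cGAMP, at 15.2 and 17.9 CPM against 10.3 and 10.5 with SeV (-0.67 ± 0.18, adjusted p = 0.041). Both calls were lost with any 1 of the 4 libraries left out, and both also in DESeq2.

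**Figure D2:**
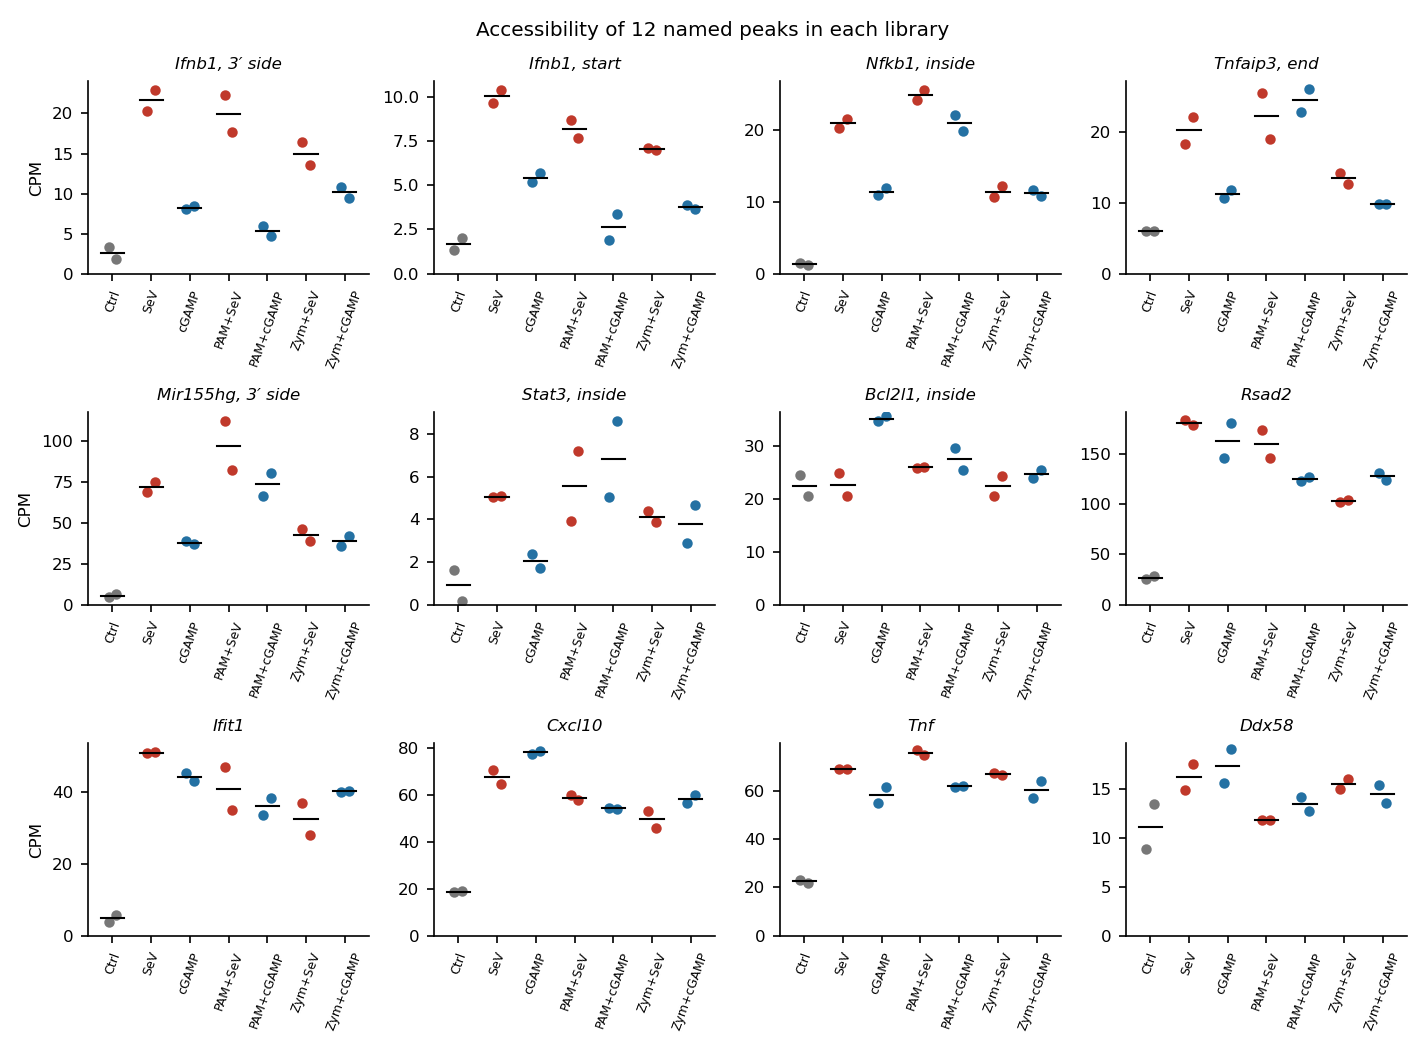
Level in CPM (y axis, from 0) of 12 named peaks in each library of 7 groups (x axis; Zym is depleted zymosan); each point is a library, and each bar is the mean of the 2 libraries. At the Ifnb1, Nfkb1, Tnfaip3, Mir155hg and Stat3 peaks both SeV libraries lay above both cGAMP libraries, while at Rsad2 and Ddx58 the SeV and cGAMP libraries overlapped.

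The NF-kappaB list holds the subunits of NF-kappaB, their inhibitors and close regulators, many of them targets of NF-kappaB itself. Of 207 tested peaks at 20 genes, 7 were higher with SeV (3.38%, against 0.728% of all peaks) and 0 with cGAMP. They lay at 4 genes, and the list's median was 0.10 with 127 peaks above 0. Like the other lists, it was chosen with earlier results of these data known, so its share is a description and not a test. With 1 library left out, 1 to 3 peaks of the list were called, and with the other settings 5 to 9. Nfkb1, which encodes the p50 subunit, carried 43 of the 207 peaks, 2 of them called. The first, inside the gene (chr3:135640041-135640780), had 20.3 and 21.6 CPM with SeV, 10.9 and 12.0 with cGAMP and 1.53 and 1.25 in Ctrl. Its log2 fold change was 0.87 ± 0.15 (adjusted p = 3.6e-05), and it stayed called with any 1 library left out. The second Nfkb1 peak had 4.58 and 4.80 CPM with SeV against 2.23 and 1.5 with cGAMP (1.33 ± 0.33, adjusted p = 0.017).

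Tnfaip3 encodes A20, an enzyme that shuts NF-kappaB signalling off. The stronger of its 2 called peaks overlaps the 3' end of the gene (chr10:19001098-19005823) and had 18.4 and 22.1 CPM with SeV, 10.7 and 11.7 with cGAMP and 6.01 and 6.08 in Ctrl. Its log2 fold change was 0.85 ± 0.15 (adjusted p = 0.00015), and it was not called without S replicate 2. The other, 16 bp beyond the gene, had 17.8 and 19.9 CPM against 12.1 and 11.9 (0.65 ± 0.16, adjusted p = 0.013). Traf1, an adaptor of TNF-family receptors, had 2 called peaks inside the gene. The stronger had 12.0 and 11.4 CPM with SeV against 5.33 and 8.60 with cGAMP (0.74 ± 0.20), and the weaker 3.27 and 3.51 against 1.03 and 0.931 (1.78 ± 0.45). The Nfkbid peak rested on 16 and 22 counts against 2 and 3. The 5 calls at the second Nfkb1 peak, the other Tnfaip3 peak, both Traf1 peaks and Nfkbid were each lost in at least 3 of the 4 fits without a library. At the other 16 genes, Rela, Rel, Relb, Nfkb2 and Nfkbia among them, no peak was called.

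Of 225 peaks at 25 IRF, STAT and feedback genes, 1 was higher with SeV (0.444%) and 0 with cGAMP, and the median was -0.01. It lay inside Stat3, which encodes a factor that carries cytokine signals, and had 5.04 and 5.10 CPM against 2.39 and 1.72 (1.31 ± 0.32, adjusted p = 0.016), a call lost with any 1 library left out. The strongest gene-end peak of Irf7, which amplifies interferon production, was not called (-0.23 ± 0.12, adjusted p = 0.45).

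Of 198 peaks at 33 inflammatory genes, 2 were higher with SeV (1.01%) and 1 with cGAMP (0.505%), with a median of 0.07. The Tnfsf15 peak, 3648 bp from the gene for a TNF-family cytokine, had 4.25 and 4.43 CPM with SeV against 1.75 and 1.58 with cGAMP (1.38 ± 0.32, adjusted p = 0.0089). The Il6 peak 32 bp from that gene's end rested on 17 and 17 counts against 4 and 0. The peak higher with cGAMP lay 3227 bp from Ccl7 and within 5 kb of Ccl2, genes for monocyte-attracting chemokines, and had 2.88 and 3.44 CPM with SeV against 6.36 and 6.73 (-1.05 ± 0.26, adjusted p = 0.016). The calls at Tnfsf15 and Ccl7 were lost with any 1 library left out, and the Il6 call without either S library or cG replicate 2. The strongest gene-end peaks of Tnf (0.25 ± 0.10), Il6 (0.15 ± 0.14), Il12b (0.10 ± 0.23) and Cxcl10 (-0.21 ± 0.10) were not called, with adjusted p from 0.27 to 0.94. The dendritic cell maturation list had 0 of 190 peaks called in either direction, and its gene-end peaks of Cd40 and Ccr7 were at 0.06 ± 0.12 and -0.21 ± 0.20. A p that misses the threshold does not show equal levels.

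The other lists had 0 to 2 called peaks each, to be read against 0.728% of all peaks higher with SeV and 0.22% with cGAMP. For endoplasmic reticulum stress 1 of 106 was higher with SeV (0.943%), within 5 kb of Ppp1r15a, which encodes a phosphatase subunit that restores translation, and overlapping the neighbouring gene Tulp2. MHC class I loading had 1 of 113 higher with SeV (0.885%), inside Pdia3, and the lineage factors 1 of 283 (0.353%), inside Zeb2. Higher with cGAMP were 2 of 230 cell death peaks (0.870%), both inside Bcl2l1, 1 of 171 AP-1 and ATF peaks (0.585%), inside Nfe2l2, and 1 of 115 p53 target peaks (0.870%), at Btg2. Autophagy and lysosome genes had 0 of 235. The Zeb2, Nfe2l2 and Btg2 calls were lost with any 1 of the 4 libraries left out, the Ppp1r15a call without S replicate 2 or either cG library, and the Pdia3 call without S replicate 1 or cG replicate 2.

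**Figure D3:**
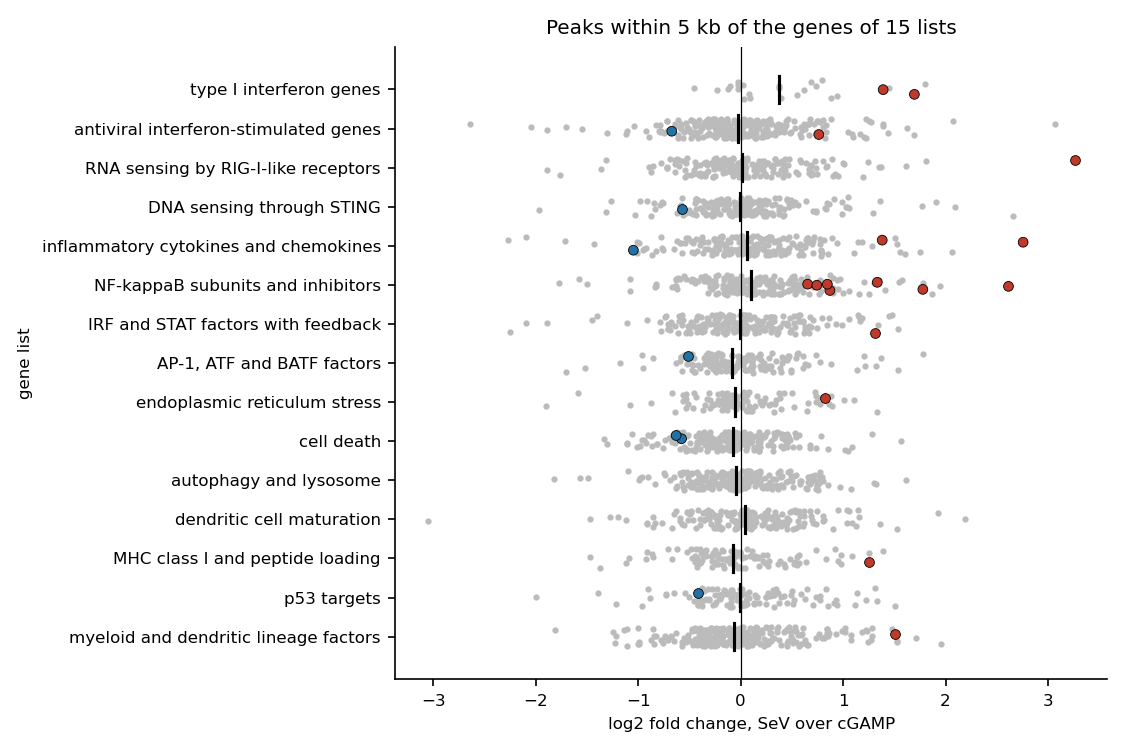
Log2 fold change of SeV over cGAMP (x axis) for every tested peak within 5 kb of the genes of 15 lists (y axis), 1 point a peak with random vertical spread; black bars are list medians. Large red points were higher with SeV and large blue points higher with cGAMP; the NF-kappaB list carries 7 red points, and no other list more than 2.

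MicroRNA miR-155 is made from the transcript of Mir155hg (chr16:84713023-84715245) and is induced in activated myeloid cells; the locus was chosen after its values were seen. Its 5p arm is printed for its seed, bases 2 to 8, in capitals.
mmu-miR-155-5p (chr16:84714143-84714165, plus strand): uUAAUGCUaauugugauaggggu

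Within 50 kb of Mir155hg, 5 of 16 tested peaks were higher with SeV, against 0.728% of all tested peaks, and 0 with cGAMP, at log2 fold changes from 0.47 to 1.59. Over 100 kb on each side, 8 of 38 were higher with SeV, 7 of them upstream of the gene. The lowest p was at one of a pair of upstream peaks, chr16:84681734-84682669. It had 11.1 and 10.1 CPM with SeV, 3.42 and 3.58 with cGAMP and 0.218 and 0.579 in Ctrl (1.59 ± 0.21, adjusted p = 4.2e-08). Its neighbour, 31648 bp upstream of the gene (chr16:84680316-84681375), had 15.1 and 14.0 CPM against 5.89 and 6.95 (1.18 ± 0.18, adjusted p = 1.1e-06). The wide peak just past the 3' end (chr16:84715616-84722233), which also overlaps the end of Mrpl39, had 69.0 and 75.3 CPM with SeV, 39.2 and 36.9 with cGAMP and 4.48 and 6.27 in Ctrl. SeV libraries were above cGAMP libraries and both were above the control. Its log2 fold change was 0.92 ± 0.16 (adjusted p = 0.0014); it was not called without cG replicate 2, while the 2 upstream peaks stayed called with any 1 library left out.

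**Figure D4:**
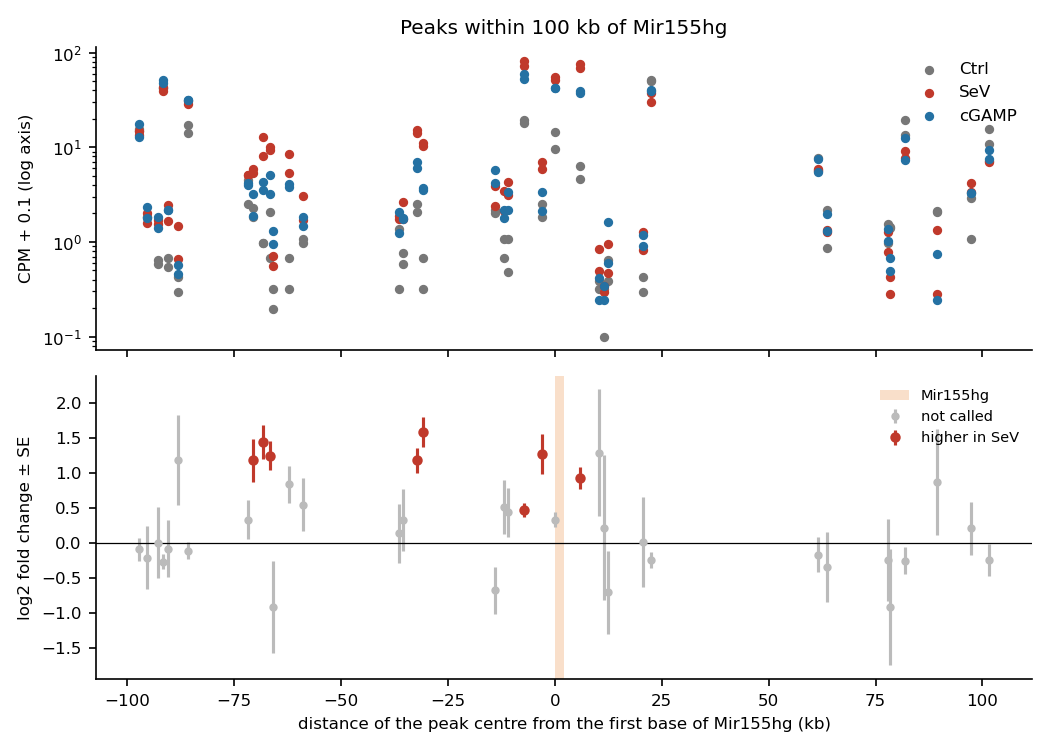
Peaks within 100 kb of Mir155hg by the distance of their centre from the first base of the gene in kb (x axis). Top, level in each Ctrl, SeV and cGAMP library as CPM plus 0.1 on a log axis; bottom, log2 fold change of SeV over cGAMP with its SE. The 8 called peaks, in red, lie upstream of the gene except 1 just past it.

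Of all windows of 1 Mb, the one with the highest number of SeV-higher peaks lay on chromosome 12 from 119 Mb, with 10 of 75 tested peaks, around Itgb8, an integrin that activates TGF-beta, and Macc1. Their log2 fold changes ran from 0.80 to 2.57. On chromosome 4 from 63 Mb, 9 of 153 were called, at 0.51 to 1.84, and on chromosome 16 from 84 Mb, the Mir155hg window, 8 of 61. These windows were picked for their counts, and over all tested peaks 0.728% were higher with SeV. The window on chromosome 4 holds Orm1 and Orm3, acute-phase proteins, Akna, Col27a1, Tnfsf15 and Tnc. At Orm1 3 of 5 peaks were called; the strongest (chr4:63348416-63349400) had 29.5 and 27.5 CPM with SeV, 16.5 and 18.1 with cGAMP and 10.5 and 8.39 in Ctrl (0.72 ± 0.15, adjusted p = 0.0013), a call lost without S replicate 1 or cG replicate 1. The Akna peak (chr4:63408260-63411096) had 97.3 and 99.4 CPM against 68.8 and 69.6 (0.51 ± 0.09, adjusted p = 0.00011), a call kept with any 1 library left out. Orm1 and Orm3 are close copies, so reads there are uncertain. With PAM or depleted zymosan in both groups, 0 of the called peaks in these windows were called. In PS over PcG, 7 of the 10 on chromosome 12, 8 of the 9 on chromosome 4 and 6 of the 8 on chromosome 16 were above 0. Some were close to 0, such as 0.013 at Orm3. Of all 870 SeV-higher peaks 78.9% were above 0 there, and of all tested peaks 51.1%. In ZS over ZcG the called peaks of these windows ran from -0.56 to 1.25.

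By gene, Atp8a1, a phospholipid flippase, had the most SeV-higher peaks, 4 of 23, and 8 further genes had 3. At 2 of the 4, S replicate 1 was far below S replicate 2: 1.57 against 4.74 CPM, with 0.636 and 0.788 with cGAMP, and 2.49 against 5.17, with 0.796 and 0.716; both calls were lost without S replicate 2. AI987944 had 3 of 5 peaks called; it belongs to a family of zinc finger genes with close copies. For cGAMP, Zranb3, a DNA repair enzyme, had 3 of 22, and 6 genes had 2, among them Bcl2l1 (2 of 22) and Fam20c (2 of 22). All these genes were picked for their counts. Over all tested peaks 0.728% were higher with SeV and 0.22% with cGAMP.

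Among called peaks at 2 CPM or more, the 8 highest were at 0.287 to 0.796 CPM in cG libraries and 2.46 to 5.23 CPM in S libraries, with Ctrl at 0 to 1.09. The highest lay 410185 bp from Atp2b1 (chr10:98503833-98504445), at 4.45 and 5.23 CPM with SeV, 0.477 and 0.358 with cGAMP and 0 and 0.193 in Ctrl (3.51 ± 0.43, adjusted p = 1.3e-09). The next lay 14960 bp from Meig1 (2.94 ± 0.49) and inside Chd6, a chromatin remodeller (2.76 ± 0.49). The others were inside Cdyl2 and Cuedc1 and nearest to Ino80c, Psma1 and Itga4, from 2.45 to 2.65. Of the 8, the Chd6 call was lost without cG replicate 2 and the Psma1 call without S replicate 1 or cG replicate 2.

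The 8 lowest, higher with cGAMP, ran from -1.62 to -1.37. They were nearest to Grm8, 3110040M04Rik, Gm41099, Tmed10, Ms4a6c, Pparg and Sema7a or inside Cyb5r4. The peak 21067 bp from Pparg, a nuclear receptor of lipid metabolism, had 1.70 and 2.77 CPM with SeV, 5.81 and 6.38 with cGAMP and 3.71 and 3.28 in Ctrl (-1.44 ± 0.31, adjusted p = 0.0025). Both S libraries were below the control and both cG libraries above it; the call was lost without S replicate 1 or cG replicate 2. Inside Cyb5r4, a reductase, levels were 2.16 and 1.35 CPM with SeV, 4.22 and 4.80 with cGAMP and 9.72 and 8.78 in Ctrl. Both groups were below the control there, and the call was lost without S replicate 2 or cG replicate 2. Among stronger peaks, Bcl2l1, which encodes the survival factor BCL-XL, had 24.9 and 20.6 CPM with SeV, 34.7 and 35.6 with cGAMP and 24.5 and 20.5 in Ctrl inside the gene (chr2:152805862-152806875; -0.63 ± 0.13, adjusted p = 0.0011). The Fam20c peak over the gene's start had 29.6 and 30.0 CPM against 43.1 and 44.2, with 31.7 and 30.6 in Ctrl (-0.55 ± 0.11, adjusted p = 0.0010). At both, the S libraries stood at the control's level and the cG libraries above it; the Bcl2l1 call was lost without S replicate 2 and the Fam20c call was not lost with any 1 library left out.

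Of the 870 SeV-higher peaks, the Ctrl mean was below both groups at 562 (64.6%, against 41.9% of all tested peaks). It was between them at 277 (31.8%, against 16.7%) and above both at 31. Of the 263 cGAMP-higher peaks, it was above both at 123 (46.8%, against 41.4% of all tested peaks). It was between them at 91 (34.6%, against 16.7%) and below both at 49. Median levels were 1.32 CPM in Ctrl, 5.32 with SeV and 1.94 with cGAMP for the first set, and 16.9, 10.7 and 17.0 CPM for the second. With both agents together (ScG) the medians were 5.51 and 11.7 CPM. ScG lay nearer to S than to cG at 834 (95.9%) of the first set and 188 (71.5%) of the second, against 58.5% of all tested peaks. Nearness was taken on the log2(CPM + 0.1) scale. S and cG levels chose these sets, so the places of Ctrl and ScG are given without a test, and the part of the higher mitochondrial share of both was not tested.

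PS and PcG, which both received PAM, share no library with S and cG. They differed at 155 peaks (0.13%), 96 higher with SeV (0.0804%) and 59 with cGAMP (0.0494%), and without any 1 of the 4 libraries at 21 (without PcG replicate 2) to 48 (without PcG replicate 1). Of the 870 SeV-higher peaks, 686 (78.9%) were above 0 in PS over PcG, with a median of 0.28, and 15 were called in the same direction. Of the 263 cGAMP-higher peaks, 74 (28.1%) were above 0, with a median of -0.15, and 7 were called lower. Over all tested peaks 51.1% were above 0, with a median of 0.01. The log2 fold changes of the 2 comparisons had a Pearson r of 0.058 across the 870 peaks and 0.011 across the 263, and 0.118 across all tested peaks; peaks are not independent replicates. Pooled over both sets, which were chosen to have opposite signs, r was 0.384. The other way round, 77 of the 96 peaks were above 0 in S over cG and 48 of the 59 below 0.

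With PAM in both groups, the 3' peak of Ifnb1 had the lowest p. It had 22.3 and 17.7 CPM in PS against 5.96 and 4.65 in PcG, a log2 fold change of 1.89 ± 0.21 (adjusted p = 1.9e-11). At the start peak the levels were 8.65 and 7.63 against 1.89 and 3.38 CPM, and there the difference was called (1.64 ± 0.28, adjusted p = 0.00018). The Ifna5 peak was called as well (2.16 ± 0.43, adjusted p = 0.0037). A peak inside Tmem245 had 11.6 and 12.5 CPM in PS against 2.60 and 3.32 in PcG (2.03 ± 0.26). Without PAM it had 9.48 and 11.6 CPM with SeV and 5.81 and 4.23 with cGAMP. In the opposite direction, the peak spanning the ends of Nos2, the inducible nitric oxide synthase, and Lgals9 had 7.90 and 6.62 CPM in PS against 20.8 and 20.5 in PcG (-1.52 ± 0.18, adjusted p = 2.6e-10). Without PAM that peak had 4.12 and 4.18 CPM with SeV against 8.99 and 5.16 with cGAMP (-0.76 ± 0.22, adjusted p = 0.068).

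The NF-kappaB and Mir155hg peaks named above were not called with PAM in both groups. There, Nfkb1 had 24.2 and 25.6 CPM in PS and 22.1 and 19.8 in PcG (0.25 ± 0.13, adjusted p = 0.75), and the stronger Tnfaip3 peak 25.6 and 19.1 against 22.8 and 26.1 (-0.14 ± 0.14, adjusted p = 0.90). The wide Mir155hg peak had 112 and 82.2 CPM against 66.8 and 80.5. In each, the PcG libraries stood above both cG libraries. The test of the difference between differences, S over cG less PS over PcG, called 68 peaks (0.0569%), 52 positive (0.0435%) and 16 negative (0.0134%); with total-count scaling the split was 52 against 6, with abundance-dependent offsets 87 against 12, and without 1 library 12 to 38 peaks were called. Among the positive ones were the stronger Tnfaip3 peak (0.99) and both upstream Mir155hg peaks (1.36 and 1.34). The lowest p was at a peak inside the kinase gene Mast4 (2.26 ± 0.37). At Mast4 the levels were 6.21 and 4.55 CPM with SeV against 1.19 and 1.22 with cGAMP, and 12.7 and 12.2 in PS against 13.9 and 13.0 in PcG. For Nfkb1 that test gave 0.63 (adjusted p = 0.31) and for the Ifnb1 3' peak -0.50 (adjusted p = 0.75). The lowest p among negative values was at a peak 162 bp from Oasl1, an antiviral gene: 15.8 and 14.8 CPM with SeV against 17.9 and 24.6 with cGAMP, and 23.0 and 20.0 in PS against 12.3 and 12.8 in PcG.

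ZS and ZcG, which both received depleted zymosan, differed at 547 peaks (0.458%), 195 higher with SeV (0.163%) and 352 with cGAMP (0.295%), but the mitochondrial share was also lower in both ZS libraries than in both ZcG libraries. The split moved with the scaling and with other settings: with total counts it was 1888 against 52, where the median of all peaks moved to 0.25, and with abundance-dependent offsets 199 against 79. At a mean of 2 CPM it was 285 against 227, with only its 4 libraries 148 against 128, and with DESeq2 180 against 589. Without 1 library the count was 288 (ZS replicate 1), 60 (ZS replicate 2), 54 (ZcG replicate 1) or 195 (ZcG replicate 2). Of the 870 SeV-higher peaks, 643 (73.9%) were above 0 here, with a median of 0.29, and 12 were called higher; of the 263 cGAMP-higher peaks 57 (21.7%) were above 0, with a median of -0.21, and 6 were called lower and 1 higher. Over all tested peaks 49.9% were above 0. The Pearson r was 0.221 across the 870 peaks and -0.163 across the 263, 0.420 with both sets pooled, and 0.080 across all tested peaks. The other way round, 98 of the 195 peaks higher in ZS (50.3%) were above 0 in S over cG, with a median of 0.0036, and 272 of the 352 lower in ZS (77.3%) were below 0. At the Ifnb1 3' peak the levels were 16.4 and 13.5 CPM in ZS against 10.9 and 9.46 in ZcG, without overlap, and the log2 fold change of 0.56 was not called (adjusted p = 0.25).

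The difference between S over cG and ZS over ZcG was called at 94 peaks (0.0787%), 49 positive (0.041%) and 45 negative (0.0377%); with total-count scaling the split was 33 against 388. The Samhd1 and Tldc2 peak had the lowest p: higher with cGAMP alone, it had 33.0 and 29.7 CPM in ZS against 23.5 and 19.7 in ZcG, and the differences differed by -1.11. A peak inside Rnf213, an interferon-induced ubiquitin ligase, had 2.88 and 4.98 CPM with SeV against 8.59 and 10.6 with cGAMP. With depleted zymosan it had 10.9 and 9.86 CPM in ZS against 7.48 and 6.68 in ZcG. With PAM the same peak had 5.27 and 4.44 CPM in PS against 10.2 and 9.69 in PcG.

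**Figure D5:**
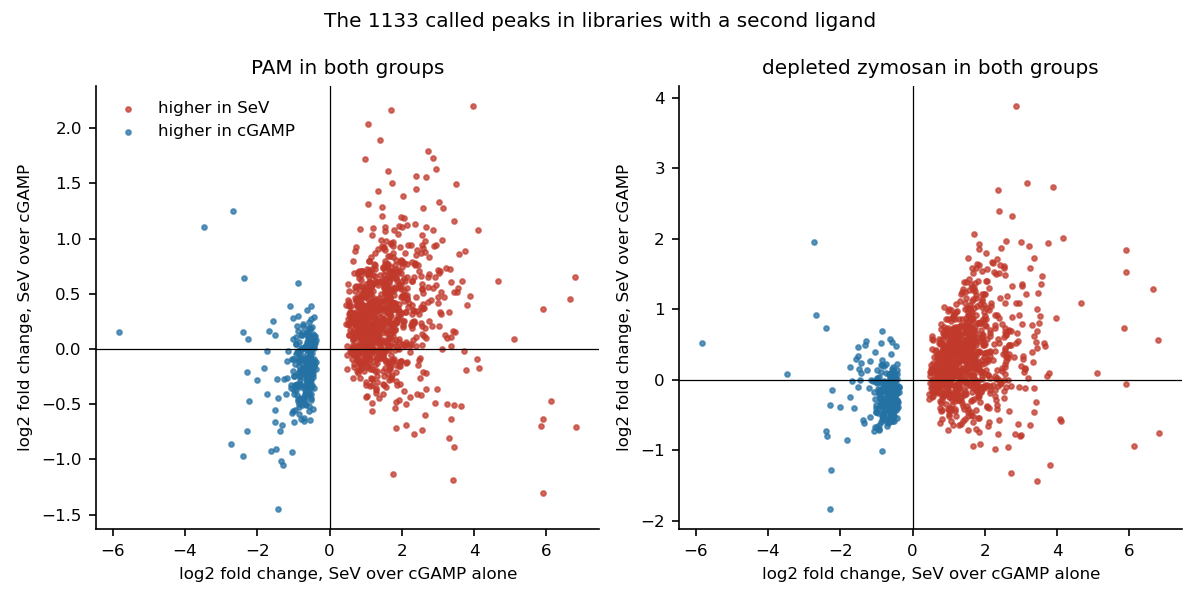
Log2 fold change of SeV over cGAMP in libraries that also received PAM (left, y axis) or depleted zymosan (right, y axis) against that without a second ligand (x axis), for the 1133 called peaks. Red points were higher with SeV alone and blue points with cGAMP alone; 78.9% of the red points lie above 0 on the left and 73.9% on the right, and 28.1% and 21.7% of the blue points do.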

How the data were processed

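The authors deposited whole-number read counts per peak, not normalized, for 119751 peaks in 36 libraries. Bowtie2 2.2.9, MACS2 1.4, bedtools, featureCounts and the mm10 build are named in the submitters' processing notes, without roles or order. Duplicate handling, any shift of read ends to the transposase cut and the pooling of libraries for peak calling are not given in the sources used here. Reads carry no molecular identifiers, so counts are not independent molecules. The title of each sample gave its count column, and 0 columns went unused.

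After the mitochondrial peak was left out, filterByExpr (minimum count 10) dropped 286 peaks and kept 119464. The edgeR 4.0.16 quasi-likelihood test (R 4.3.3) used TMM scaling, 1 coefficient per group over all 36 libraries (18 residual degrees of freedom) and trended dispersions (common value 0.020). The Benjamini-Hochberg method adjusted p-values over all tested peaks in each comparison; a peak was called under 0.05. Standard errors are the log2 fold change divided by the root of the F statistic, and values after ± without another name are these. The script was tested on simulated data. Alternatives were RLE and total-count scaling, abundance-dependent offsets, no filter or a mean of 2 CPM, thinned counts, DESeq2 1.42.0, only the groups compared, a replicate block, each library left out, the mitochondrial peak kept and a fold threshold. A fit of 26 libraries, most with lower mitochondrial shares, was added after the data were seen. It left out Ctrl, ZcG, ScG, depleted zymosan alone and depleted zymosan with both agents. ZS replicate 1 (58.1%) was kept although ScG replicate 1 (57.3%) was left out.

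Positions of protein-coding genes, and of Mir155hg, came from RefSeq (GRCm38.p6), and a list gene held the peaks within 5 kb. Members and lists were chosen with earlier results of these data known. Named peaks were the 8 highest and 8 lowest log2 fold changes among called peaks with a mean of at least 2 CPM and no overlap of libraries; the lowest p in each direction in each list; the strongest gene-end peak of 15 loci; and the 5 genes with most called peaks in each direction, ties in alphabetical order. Chosen after their values were seen were the peaks at Mir155hg, the Ifnb1 start, Ifna5, Stat3, Abcb5, Akna, Tmem245, Nos2, Mast4, Oasl1, Rnf213, Hamp and Nab2, further NF-kappaB peaks and the Il6 peak of the inflammatory list. A result that needs an item withheld here is not reported, and its gene was left out of its list.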

Additional observations from a re-analysis of the deposited data

Results flagged for a closer look

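These values stand out because the SeV-cGAMP difference itself differed with a second ligand, by the edgeR test of the difference between differences (adjusted p under 0.05). With PAM, 68 peaks did so. The difference of log2 fold changes, without PAM less with PAM, was 3.00 at the peak 410185 bp from Atp2b1, 2.18 at the Ino80c peak, 2.26 in Mast4, 1.411 at a peak 61649 bp from Abcb5, 1.357 and 1.337 at the upstream Mir155hg pair, 0.987 at the 3' end of Tnfaip3, -0.708 at Btg2 and -1.25 at Oasl1. With depleted zymosan, 94 peaks did so, and the difference was 2.606 at the Atp2b1 peak, 2.692 at the Ino80c peak, 2.126 in Mast4, 1.478 at the farther of the upstream Mir155hg pair and -1.113 at the Samhd1 and Tldc2 peak. At Atp2b1 the PcG libraries had 5.10 and 6.12 CPM and the cG libraries 0.477 and 0.358. All groups hold 2 libraries, so no library could be checked as an outlier within its group.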

How the results depend on the processing

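The SeV-cGAMP count was 1133 (870 higher with SeV, 263 with cGAMP). It stayed within 1.5 times of that with RLE scaling, total counts, abundance-dependent offsets, other filters, DESeq2 and the mitochondrial peak kept. So it did with only the 4 libraries and in the fit of 26 libraries. Thinned to the smallest library it was 581 (466 and 115), and peaks at a log2 fold change of 1 or more numbered 706 (45 higher with cGAMP). Peaks higher with cGAMP numbered 161 with total counts and 151 with abundance-dependent offsets. PS against PcG gave 155 peaks, 586 with only its 4 libraries, 83 thinned and 68 past the fold threshold. ZS against ZcG gave 547, 1940 with total counts, 278 with abundance-dependent offsets, 276 with only its 4 libraries, 275 thinned and 199 past the fold threshold. Dependence on PAM gave 68, 132 at a mean of 2 CPM, 206 with only its 8 libraries, 118 in the 26 libraries and 27 thinned; dependence on zymosan gave 94, 421 with total counts and 48 thinned. Leaving out 1 library gave 362 to 434 for SeV against cGAMP (298 to 321 higher with SeV, 57 to 123 with cGAMP), 21 to 48 with PAM, 54 to 288 with zymosan, 12 to 38 for dependence on PAM and 10 to 130 for dependence on zymosan. The cause was not tested. Fewer libraries or counts limit what can be called.

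Same-numbered libraries showed no shared deviation over all tested peaks (correlation -0.0028 for S and cG, 0.0055 for PS and PcG, 0.0069 for ZS and ZcG). Most of these peaks have low counts, so this does not show that the libraries were unpaired. With a replicate block the counts were 1110, 148, 565, 68 and 94, and the Gbp5 call was lost. Signs turned at Isg15 (0.024), Ifih1 (0.0094) and Cgas (0.023) with abundance-dependent offsets and at Il12b (-0.059) when thinned, all uncalled. With 1 library left out, Il12b ran from -0.074 to 0.255, Ddx58 from -0.239 to 0.053, Sting1 from -0.466 to 0.027 and Cgas from -0.123 to 0.00857, all uncalled. Of the 73 called peaks chosen for naming, 16 stayed called with each of the 4 libraries left out in turn, among them those at Ifnb1, Nfkb1, Atp2b1, Meig1, Akna, Abcb5 and the upstream Mir155hg pair, and 38 stayed called under every other alternative that gave a value.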
